A study of Mus musculus with 10 samples.

Results

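The 10 deposited lists of significant chromosome interactions held 17029 pairs of 10 kb bins, each pair counted once per library, and 9048 of them (53.1%) joined bins of the same chromosome that lay 20 Mb or more apart. These long pairs were chosen by distance alone, as the difference between the midpoints of the bins in the mm9 build of the mouse genome, with no use of the reads, p-values or bias factors. The remaining 7981 pairs, under 20 Mb apart, served for comparison. Distances never exceeded 100 Mb.

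The libraries were exo-Hi-C of mouse embryonic stem cells of the line ES-E14TG2a, grown without feeders on gelatin with LIF and the inhibitors CHIR99021 and PD0325901. The 5 genotypes, with 2 libraries each, were WT, the single knockouts E1-KO, E2-KO and E3-KO, and the double knockout E1&E3-dKO, where E1, E2 and E3 are enhancers that the submitters deleted and whose position the labels do not give. All 10 libraries share the same parental line and medium. The labels do not say whether a genotype is 1 clone or whether its libraries came from separate cultures, and the p-values therefore speak only of the variation among these 10 libraries. No file gives gene expression, so the identity of the cells could not be checked against markers.

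Hi-C counts how often a pair of genomic sites is ligated after crosslinking, which reflects how often the sites lie close together in the nucleus. Contact falls steeply with distance along the chromosome. Contacts over many megabases are rare, and they are known mostly from the segregation of active and inactive chromatin into compartments and from the clustering of particular regions. Exo-Hi-C adds an exonuclease digestion after ligation that removes linear DNA. A listed pair of bins carries the number of reads that joined them, a p-value and 1 bias factor per bin, a ratio that is above 1 for a bin that collects more reads than an average bin and below 1 for a bin that collects fewer. ES-E14TG2a is a male line and carries a single X chromosome.

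Most long pairs stood on 2 or 3 reads and were found in a single library. Of the 9048 pairs, 8029 (88.7%) had 2 or 3 reads, and only 40 had 10 or more. After pairs within 1 bin of each other at both ends were joined across libraries, 8818 distinct long pairs remained, of which 8757 (99.3%) occurred in 1 library, 61 in at least 2 libraries, 14 in at least 5 and 2 in all 10. Those that recurred most lay on the X chromosome, chromosome 6 and chromosome 8. A pair of regions on the X chromosome near 4.2 and 32.1 Mb carried the most reads of any long pair.

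The X chromosome pair joined the bins at chrX:4230001-4240000 and chrX:32110001-32120000, 27.9 Mb apart. Its neighbours within 1 bin formed a chain of 39 listed pairs, with ends from 4.225 to 4.285 Mb and from 32.065 to 32.125 Mb. The highest read count in the chain was 26 and 15 in the WT libraries, 32 and 11 in E3-KO, 21 and 22 in E1-KO, 14 and 11 in E1&E3-dKO, and 18 and 43 in E2-KO. Every genotype held the pair in both libraries, and the WT values lay inside the range of the knockouts. A further pair nearby, from 3.075 to 30.485 Mb, was listed with 4 to 7 reads in 9 libraries and was not listed in E1&E3-dKO replicate 1. A pair from 3.215 to 32.095 Mb was listed in 8 libraries with 6 to 15 reads, and was not listed in E3-KO replicate 2 or E1&E3-dKO replicate 2.

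These pairs belonged to a block of contacts between 3 to 5 Mb and 30 to 33 Mb of the X chromosome. The block held 114 of the 518 long pairs of the X chromosome (22.0%). It was present in every library, with 15 and 5 pairs in WT, 11 and 8 in E3-KO, 14 and 7 in E1-KO, 5 and 8 in E1&E3-dKO, and 21 and 20 in E2-KO. In number the genotypes overlapped except that both E2-KO libraries lay above the rest. As a share of a library's long pairs the block made up 1.10% and 6.97% in E2-KO. These lay inside the range of the other libraries, 0.215% in E1&E3-dKO replicate 2 to 10.5% in E1-KO replicate 1. Of the 40 long pairs with 10 or more reads, 24 lay in this block, 10 on chromosome 6 and 5 on chromosome 8. These 40 were 7 distinct pairs, and each recurred in another library.

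On chromosome 6, the pair from chr6:78160001-78170000 to chr6:136270001-136280000, 58.1 Mb apart, was listed in all 10 libraries. It had 5 and 3 reads in WT, 3 and 6 in E3-KO, 13 and 4 in E1-KO, 7 and 3 in E1&E3-dKO, and 4 and 16 in E2-KO. Values of 13 and 16 came from 1 library of E1-KO and 1 of E2-KO, while their partners had 4. The pair from chr6:23110001-23120000 to chr6:50560001-50570000 had 13 and 6 reads in WT, 22 and 35 in E2-KO, 9 and 19 in E1-KO, 12 in E3-KO replicate 2, and 5 and 9 in E1&E3-dKO, and was not listed in E3-KO replicate 1. Both E2-KO libraries stood above all others for that pair. The pair from 42.975 to 117.715 Mb was listed in 9 libraries with 4 to 22 reads, highest in E2-KO replicate 2 and not listed in E2-KO replicate 1. The pair from 57.435 to 82.635 Mb was listed in 7 libraries with 4 to 8 reads.

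On chromosome 8, the pair from chr8:19690001-19700000 to chr8:72080001-72090000, 52.4 Mb apart, was listed in 8 libraries. Its reads were 13 and 6 in WT, 11 and 11 in E1-KO, 13 in E2-KO replicate 2, 14 and 8 in E3-KO and 7 in E1&E3-dKO replicate 1. It was not listed in E2-KO replicate 1 or E1&E3-dKO replicate 2, which had the longest lists. A separate pair with an end nearby, from 19.575 to 106.235 Mb, was listed in 6 libraries with 3 to 5 reads. The last of the 10 most frequent pairs was on chromosome 1, from 88.635 to 134.245 Mb, in 6 libraries with 3 to 7 reads. A pair that is not listed may still have had reads, because the lists hold only pairs past the authors' threshold.

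**Figure D1:**
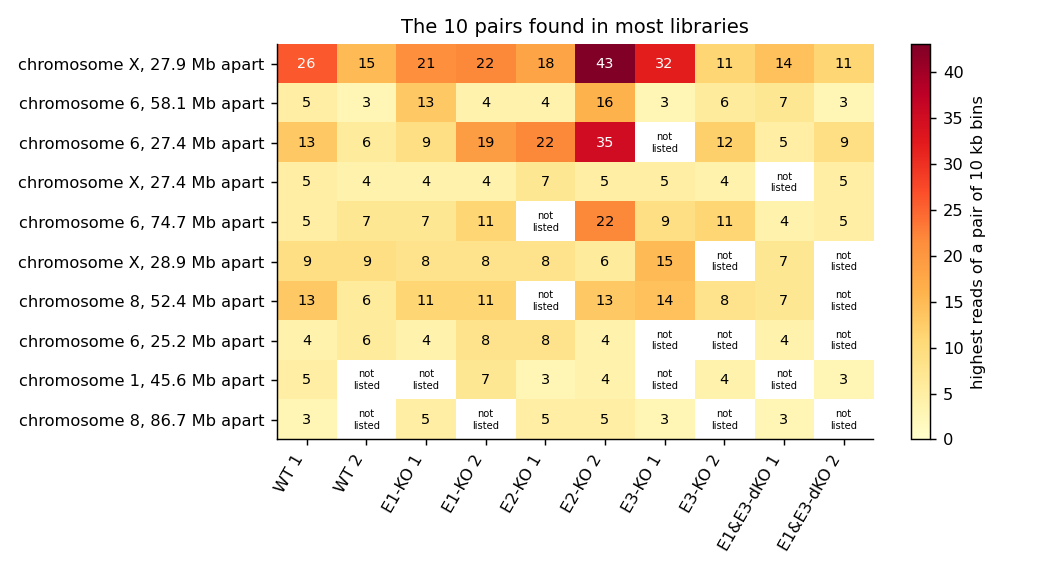
Highest read count of a pair of 10 kb bins (colour and number) for the 10 long pairs found in most libraries (rows, by chromosome and distance) in each of the 10 libraries (columns, genotype and replicate). The first X chromosome pair has 11 to 43 reads and a value in every library, and cells marked as not listed hold no value.

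The number of long pairs varied nearly as much between libraries of one genotype as over all libraries. WT held 619 and 302, E1-KO 133 and 190, E2-KO 1901 and 287, E3-KO 417 and 883, and E1&E3-dKO 603 and 3713. The E1-KO libraries had the fewest, and E2-KO replicate 1 and E1&E3-dKO replicate 2 together held more than the other 8 libraries. On the log2 scale, libraries of one genotype differed by 1.60 on average, against 1.74 over all pairs of libraries. An exact permutation over all divisions of the libraries into groups of 2 gave one-sided p = 0.295, and p = 0.483 after Benjamini-Hochberg adjustment over the 14 tests made.

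No knockout differed from WT in the number of long pairs beyond this spread, whose SD pooled over genotypes was 1.30 on the log2 scale (n = 2 libraries per genotype). The mean log2 number minus that of WT was -1.44 for E1-KO, where the exact permutation test gave two-sided p = 0.310. It was 0.77 for E2-KO (exact permutation p = 0.585), 0.49 for E3-KO (exact permutation p = 0.723) and 1.79 for E1&E3-dKO (exact permutation p = 0.218). All 8 knockout libraries together were 0.40 above WT, with exact permutation p = 0.822, where the smallest p that the design allows is 0.0222. The adjusted p of these tests is above 0.05 in each case. The sign for all knockouts together, E2-KO and E3-KO depended on the pairs kept. With the 466 best pairs of each library, the differences were -1.25 for all knockouts, -3.05 for E2-KO (unadjusted exact permutation p = 0.0173) and -0.58 for E3-KO, and leaving out single libraries gave -0.59 to 2.14 for E2-KO, the lowest without E2-KO replicate 1, and -0.05 to 1.03 for E3-KO. For all knockouts together it was -0.12 without WT replicate 2.

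A title prefix of unstated meaning, w326, is carried by 4 libraries, namely E3-KO replicate 2, WT replicate 1 and both of E2-KO. Within those 4, WT had 619 long pairs and the 3 knockout libraries 287 to 1901. Within the other 6, WT had 302 and the 5 knockout libraries 133 to 3713. The WT value lay inside the knockout range in both sets, and the knockout mean was 0.34 and 0.65 above WT on the log2 scale.

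Long pairs made up 48.6% and 64.8% of the listed pairs in WT, 50.4% and 60.2% in E3-KO, 12.5% and 36.7% in E1-KO, 70.9% and 61.7% in E1&E3-dKO, and 54.4% and 27.3% in E2-KO. Of the pairs of bins up to 100 Mb apart that could be listed, 70.1% lie at 20 Mb or more, so long pairs were listed about as often per available pair as shorter ones in E1&E3-dKO replicate 1 and less often elsewhere. Libraries of one genotype differed in this share by 17.3 points on average, against 21.1 points over all, with exact permutation one-sided p = 0.251. A common p-value of 3.33e-09 was also applied, the lowest of the largest p-values listed in a library. With only pairs past it, the exact permutation p of that comparison was 0.0265. The number of long pairs then ranged from 86 in E1-KO replicate 1 to 1768 in E1&E3-dKO replicate 2.

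**Figure D2:**
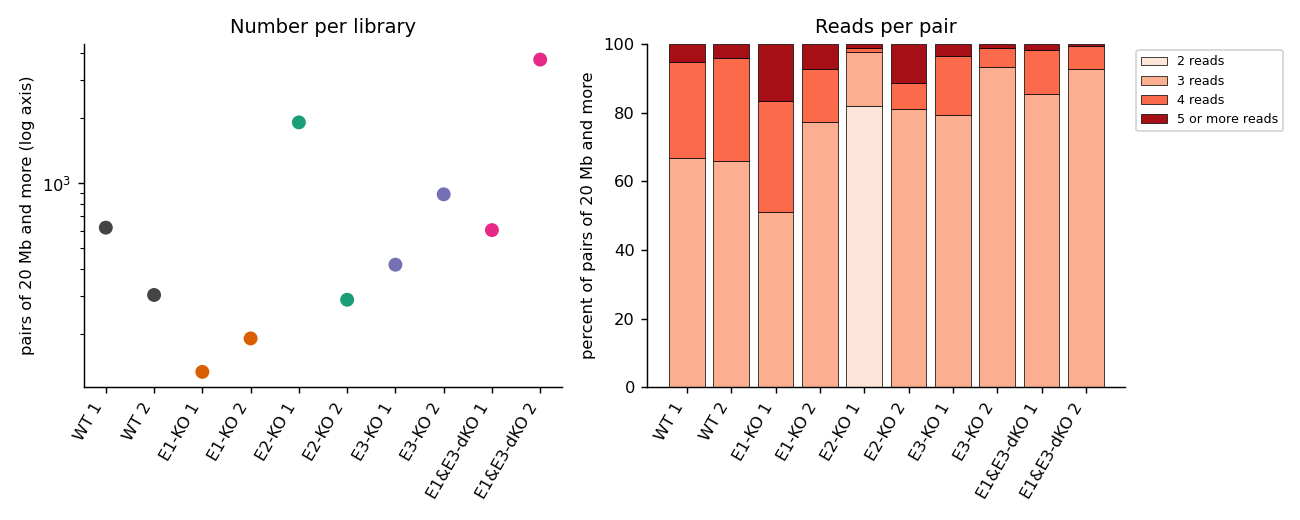
Left, number of long pairs in each library on a log axis, coloured by genotype. Right, the percent of those pairs with 2, 3, 4 and 5 or more reads. Counts run from 133 to 3713, and pairs of 2 reads occur only in E2-KO replicate 1.

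The reads behind long pairs were few in all genotypes. The median was 3 reads in 9 libraries and 2 in E2-KO replicate 1, while shorter pairs had medians of 3 to 17. On the log2 scale the median of long pairs was -1.38 relative to shorter pairs (SD 0.68, n = 10 libraries), lower in 9 libraries and equal in E1&E3-dKO replicate 2. An exact sign-flip permutation over the libraries gave two-sided p = 0.00391, adjusted p = 0.0273. A p-value cutoff is met by fewer reads where fewer are expected, as at larger distances. The direction of this difference was thus largely set by the cutoff, and no call is made from the test. Pairs of 2 reads numbered 1558, all in E2-KO replicate 1, pairs of 3 reads 6471, pairs of 4 reads 826 and pairs of 5 or more 193.

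The share of long pairs with 2 or 3 reads was 66.9% and 65.9% in WT, 79.4% and 93.4% in E3-KO, 51.1% and 77.4% in E1-KO, 85.6% and 92.7% in E1&E3-dKO, and 97.6% and 81.2% in E2-KO. The WT libraries lay closest together. In all libraries, 82.7% to 96.2% of long pairs held the fewest reads that could have been listed at all, in that 1 read fewer would have exceeded the largest p-value of that list. For shorter pairs the same share was 27.3% to 85.7%. Long pairs with 4 or more reads numbered 43 in E1-KO replicate 2, the fewest, and 272 in E1&E3-dKO replicate 2, the most.

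All lists shared 1 cutoff, an adjusted p of 0.01, but the p-value that it admits differed between libraries and rises with the length of a list. The largest listed p-value ran from 3.33e-09 in E1-KO replicate 2, with 518 lines, to 3.87e-08 in E1&E3-dKO replicate 2, with 6014 lines. The list of WT replicate 2 held each pair in both orientations, which doubles the ranks that the adjusted p-value rests on. Holding that library to an adjusted p of 0.005 left 176 of its 302 long pairs. The log2 differences from WT were then 0.79 for all knockouts, -1.05 for E1-KO, 1.16 for E2-KO, 0.88 for E3-KO and 2.18 for E1&E3-dKO, and no call changed.

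Read counts and p-values together give the number of reads that the authors' model expected, taken here as the mean of a Poisson distribution. For bins of average bias at 60 to 70 Mb it was 0.00243 and 0.00293 reads in WT, 0.00258 and 0.00114 in E3-KO, 0.00389 and 0.00170 in E1-KO, 0.00229 and 0.00174 in E1&E3-dKO, and 0.000185 and 0.000991 in E2-KO. Long pairs stood at medians of 931 to 11958 times their expected reads, and shorter pairs at 8.69 to 641 times. A pair of 2 or 3 reads is listed only where far fewer reads were expected. For such pairs the ratio largely restates the cutoff, and it does not compare the strength of contacts. The share of long pairs with 2 or 3 reads was lower in libraries with a higher expected count, with Pearson r = -0.713 (permutation p = 0.0197, adjusted over 4 such relations 0.0788) and Spearman rho = -0.806 (permutation p = 0.00733, adjusted 0.0293) over 10 libraries. Without the E2-KO libraries, which lay farthest from the median, r was -0.852, and within the 6 libraries whose title lacks w326 it was -0.853. The expected count was recovered from the same listed pairs, so the measures share their source. A lower expected count also lets pairs pass the cutoff on fewer reads. The direction of the relation with the share of 2 or 3 reads was thus largely set by the cutoff, and no call is made from it. The number of long pairs had r = -0.516 with the expected count (permutation p = 0.131) and their share of all listed pairs r = -0.136 (permutation p = 0.706). For the share of few-read, low-product pairs r was 0.291 (permutation p = 0.361), but 0.774 without the E2-KO libraries and 0.937 within those 6. Total depth is unknown.

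The bias factors of long pairs lay on both sides of those of shorter pairs. The median product of a pair's bias factors was 0.929 to 1.08 for long pairs and 0.779 to 1.24 for shorter pairs. The mean over libraries of the difference in median log2 product was -0.02 (SD 0.22, n = 10 libraries), with 5 libraries on either side and exact sign-flip permutation p = 0.748, adjusted p = 0.873. With pairs of 4 or more reads alone the difference was 0.14 and the exact permutation p 0.0156, with long pairs higher. All factors in the lists lay between 0.5 and 2, so bins outside that range do not occur in them.

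Pairs with both few reads (2 or 3) and a low product (below 0.5) made up 374 of the 9048 long pairs, or 4.13%. Their number was 23 and 17 in WT, 31 and 34 in E3-KO, 15 and 5 in E1-KO, 37 and 92 in E1&E3-dKO, and 107 and 13 in E2-KO. As a share of long pairs this was 2.48% to 11.3%, lowest in E1&E3-dKO replicate 2 and highest in E1-KO replicate 1. No separation by genotype was found, since libraries of one genotype differed by 3.78 points on average against 2.92 over all (exact permutation one-sided p = 1). Of the long pairs with 2 or 3 reads, 4103 (51.1%) had a product of 1 or more.

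These pairs lay mostly on the X chromosome, which held 251 of the 374 (67.1%) but 5.73% of all long pairs. The X chromosome held 56.5% to 93.3% of them in each library. The median bias product of long pairs was 0.448 to 0.601 on the X chromosome and 0.953 to 1.09 on the autosomes, with no overlap between the 2 classes over the 10 libraries. Few-read, low-product pairs made up 48.5% of the long pairs of the X chromosome and 1.44% of those of the autosomes. Shorter pairs showed the same split, with a median product of 0.388 to 0.631 on the X chromosome and 0.796 to 1.24 on the autosomes.

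Among shorter pairs the few-read, low-product share was 0% to 4.84%, a mean of 3.68 points below that of long pairs (SD 3.66, n = 10 libraries). In both libraries of WT and of E1-KO no shorter pair had 3 reads or fewer, so the difference there could only be positive, and no call is made from it. In the other 6 libraries it ran from -1.04 to 6.95 points, with the long pairs higher in 4 of them. On the autosomes alone the mean difference over all 10 was 0.86 points.

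At 20 to 30 Mb, pairs of 2 or 3 reads were rare in some libraries and the rule in others. WT had 4 of 100 and 2 of 40 such pairs in this class, E1-KO 0 of 29 and 1 of 19, E3-KO 5 of 41 and 163 of 185, E1&E3-dKO 18 of 51 and 977 of 1055, and E2-KO 123 of 146 and 32 of 57. Where they were rare, they were pairs of low bias: their median product was 0.34 and 0.29 in WT, 0.33 in E1-KO replicate 2, 0.35 in E3-KO replicate 1 and 0.47 in E1&E3-dKO replicate 1, each from fewer than 20 pairs. Where they were common, the median product was 0.85 in E3-KO replicate 2, 1.03 in E1&E3-dKO replicate 2, and 1.11 and 0.68 in E2-KO. At 90 to 100 Mb the medians lay between 0.94 and 1.36 in all 10 libraries. Few-read pairs of low bias thus formed most of the few-read pairs only in the nearest classes of some libraries, and little of the whole list. These products largely restate the listing cutoff. An average pair at 20 to 30 Mb was expected at 0.0101 and 0.00983 reads in WT, against 0.000773 in E2-KO replicate 1. Where more reads are expected, 3 reads pass the cutoff only with a low product.

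The distances of long pairs also differed within genotypes. The median was 57.9 and 64.1 Mb in WT, 66.3 and 42.2 Mb in E3-KO, 59.6 and 58.7 Mb in E1-KO, 58.4 and 40.1 Mb in E1&E3-dKO, and 69.4 and 43.8 Mb in E2-KO. Counted per 1000000 available pairs of bins, E1&E3-dKO replicate 2 was densest at 20 to 30 Mb, with 5.08 pairs, and thinned out with distance. E2-KO replicate 1 was densest at 80 to 90 Mb, with 3.80 pairs. The density at 90 to 100 Mb over that at 20 to 30 Mb was 0.274 to 0.603 in E1&E3-dKO replicate 2, E3-KO replicate 2 and E2-KO replicate 2, and 1.17 to 4.18 in the other 7. At the edge of the 20 Mb rule, 189 pairs lay at 19 to 20 Mb and 150 at 20 to 21 Mb, with a median of 3 reads on either side.

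**Figure D3:**
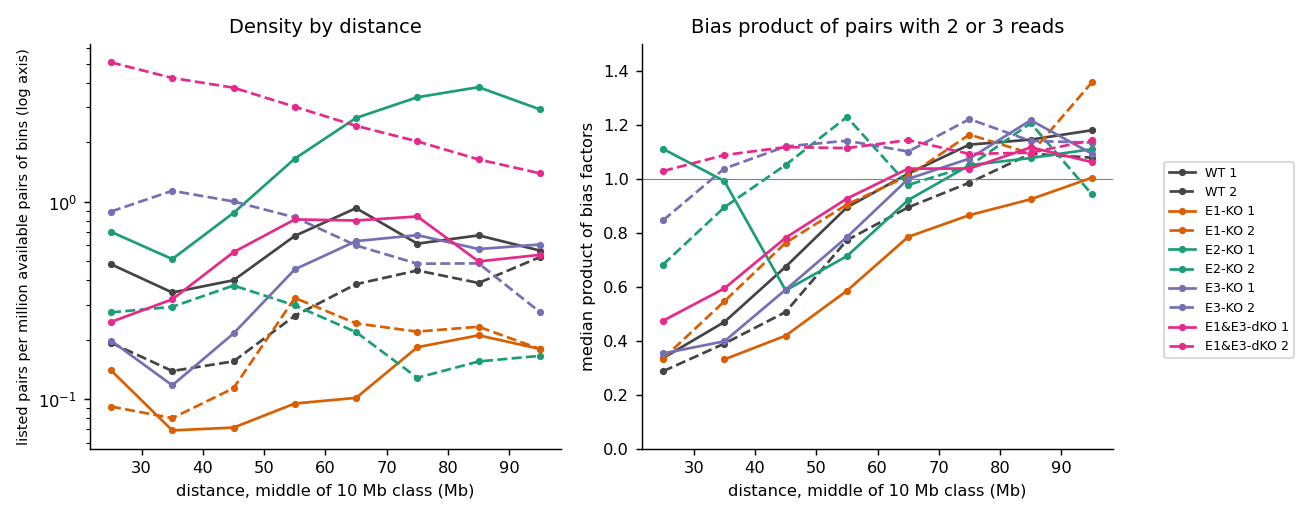
Left, long pairs per 1000000 available pairs of bins in 10 Mb classes of distance (log axis), 1 line per library, replicate 1 solid and replicate 2 dashed. Right, the median product of bias factors of pairs with 2 or 3 reads, where 1 (grey line) is an average pair. Density falls from 5.08 at 20 to 30 Mb in E1&E3-dKO replicate 2, and medians of 0.29 to 1.11 at 20 to 30 Mb, where 5 of the 9 libraries with a value have fewer than 20 such pairs, come together at 0.94 to 1.36 by 90 to 100 Mb.

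Long pairs were spread over all 20 chromosomes in rough proportion to length. Their number correlated with chromosome length at a Pearson r of 0.671 (E1-KO replicate 1) to 0.965 (E2-KO replicate 1) over the 20 chromosomes of a library, with a mean of 0.844 (SD 0.100, n = 10 libraries). The mean share over libraries gave r = 0.958 and rho = 0.961. Chromosome 1, the longest, held 901 long pairs and chromosome 19, the shortest, 53. These correlations describe chromosomes that share a library's reads and threshold.

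In each library, a chromosome's share of listed long pairs was divided by its share of the available long pairs of bins. The mean of this ratio over libraries was highest on chromosome 16 (1.26 ± 0.50, SD, n = 10), chromosome 6 (1.26 ± 0.41) and the X chromosome (1.19 ± 0.67). Chromosome 16 was above 1 in 8 of the 10 libraries, chromosome 6 in 6 and the X chromosome in 5. With the long pairs of all libraries pooled, the X chromosome held 5.73% of them, below its 7.44% of the available pairs. The X chromosome ran from 0.362 to 2.83, highest in E1-KO replicate 1, where the block between 3 to 5 and 30 to 33 Mb held 14 of its 28 long pairs. When only pairs found in a single library were counted, the ratio was 1.36 on chromosome 16, 1.05 on chromosome 6 and 0.905 on the X chromosome.

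The ratio was lowest on chromosome 17 (0.734 ± 0.46), chromosome 7 (0.748 ± 0.18) and chromosome 18 (0.800 ± 0.44). The means of chromosomes 17 and 18 rest in part on libraries with very few pairs. Chromosome 17 had 1 to 89 long pairs per library and chromosome 18 had 0 to 94. In E1&E3-dKO replicate 2, which had the most, their ratios were 1.03 and 1.23. Chromosome 17 was above 1 in 3 libraries and chromosome 18 in 2. Chromosome 7 was below 1 in all 10 libraries. It held 4.82% of long pairs on average, against 10.5% of shorter pairs. Chromosome 12 likewise held 3.87% of long and 11.2% of shorter pairs, although its ratio of long pairs was near the middle of the chromosomes.

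**Figure D4:**
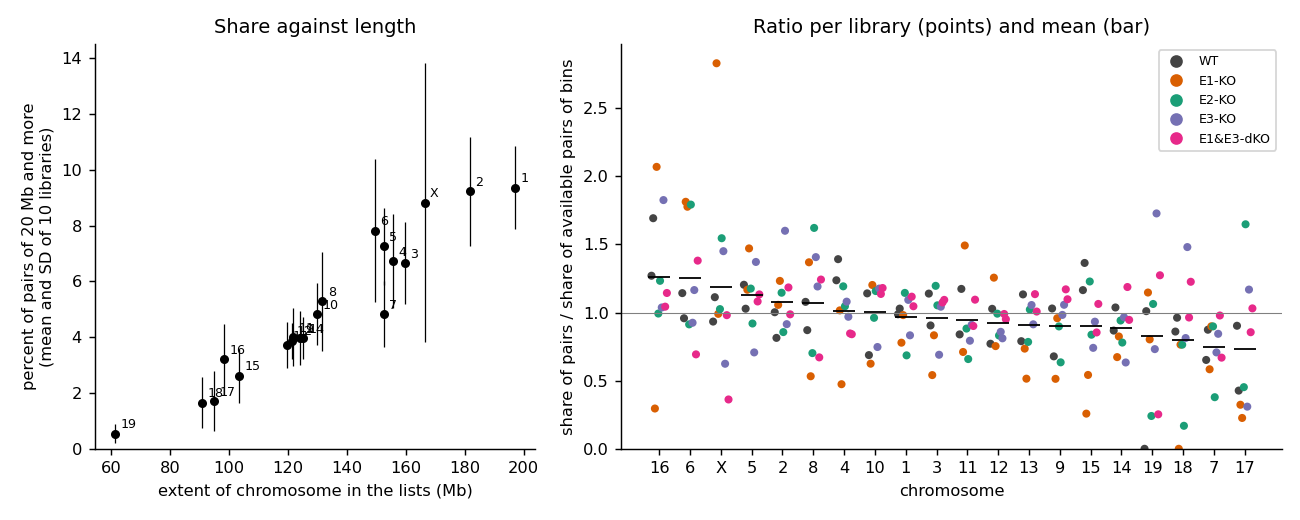
Left, percent of long pairs on each chromosome (mean and SD of 10 libraries) against the extent of the chromosome covered by the lists. Right, each library's share of long pairs on a chromosome divided by that chromosome's share of available pairs of bins, with the mean as a bar. Shares rise with length (r = 0.958), and all 10 points of chromosome 7 are below 1.

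Long pairs recurred far less often than shorter ones. A long pair was found in at least 1 other library, with both ends within 1 bin, for 4.52% and 5.30% of pairs in WT, 6.24% and 2.83% in E3-KO, 21.8% and 12.6% in E1-KO, 3.65% and 0.539% in E1&E3-dKO, and 2.47% and 18.1% in E2-KO. For shorter pairs the share was 11.7% to 86.3%. The difference was -47.4 points (SD 19.3, n = 10 libraries), lower for long pairs in 10 of 10, with exact sign-flip permutation p = 0.00195, the smallest that 10 libraries can give, and adjusted p = 0.0273. Because a recurrent pair counts in each library that holds it, these differences are not fully independent. Of long pairs, 82.7% to 96.2% held the fewest reads that could be listed, against 27.3% to 85.7% of shorter pairs. Such a pair leaves a list with 1 read fewer, so the test does not separate distance from reads. The difference was smallest, -11.2 points, in E1&E3-dKO replicate 2, where the median reads of both classes were equal. Among pairs of 4 or more reads it was -33.8 points with the same exact permutation p. The median reads of long pairs were still lower there, by -1.01 on the log2 scale. Over distinct pairs, 0.692% of long ones and 12.3% of 5021 shorter ones occurred in at least 2 libraries.

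The number of recurrent long pairs was far more even than the number of lone ones. Recurrent pairs numbered 28 and 16 in WT, 26 and 25 in E3-KO, 29 and 24 in E1-KO, 22 and 20 in E1&E3-dKO, and 47 and 52 in E2-KO. Lone pairs numbered 591 and 286 in WT, 391 and 858 in E3-KO, 104 and 166 in E1-KO, 581 and 3693 in E1&E3-dKO, and 1854 and 235 in E2-KO. E1&E3-dKO replicate 2 thus had the most lone pairs and, after WT replicate 2, the fewest recurrent ones. Recurrent pairs had medians of 4 to 6.5 reads and lone pairs of 2 to 3, and 0% to 48.0% of recurrent pairs but 65.4% to 98.9% of lone pairs had 2 or 3 reads.

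**Figure D5:**
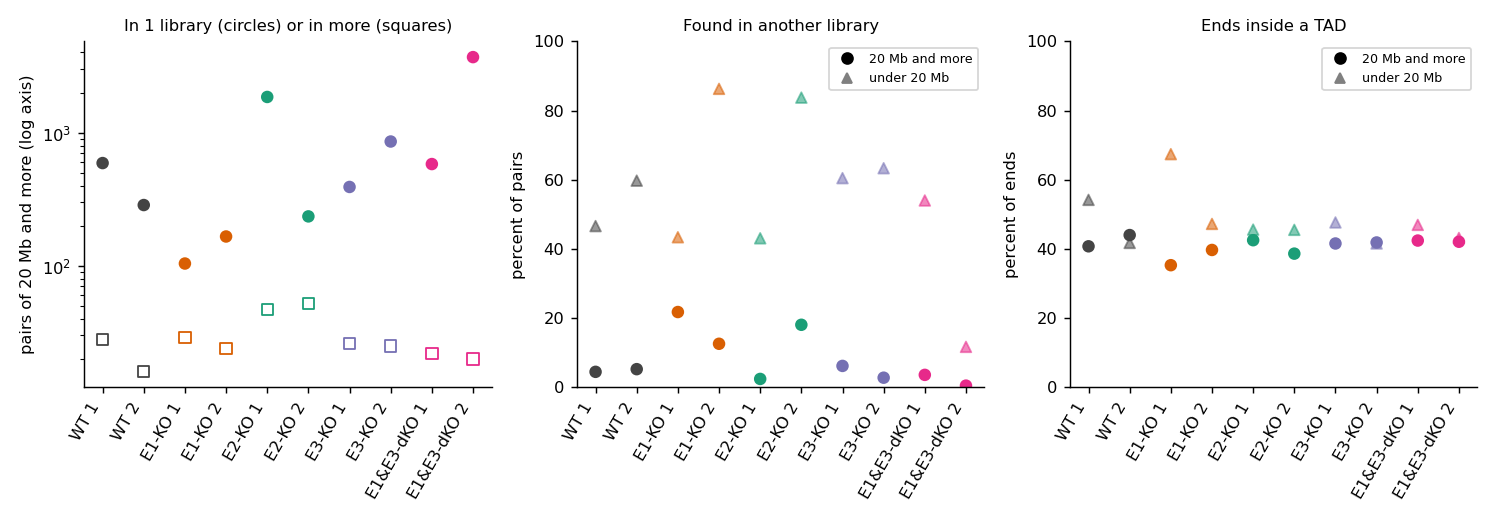
Left, long pairs found in 1 library (circles) and in 2 or more (squares) on a log axis. Middle, percent of long (circles) and shorter (triangles) pairs that another library also lists. Right, percent of the ends of long and shorter pairs inside a TAD of the same library. Recurrent pairs number 16 to 52 in every library while lone pairs run from 104 to 3693.

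Few long pairs were held by both libraries of 1 genotype and by no other library. Both libraries of a genotype shared 9 distinct long pairs in WT, 11 in E1-KO, 26 in E2-KO, 7 in E3-KO and 7 in E1&E3-dKO. Of these, 11 of the 26 in E2-KO were listed in no other library, against 0 in the other 4 genotypes. Such pairs were not particular to long distances. Among shorter pairs, 97 of the 333 that both E2-KO libraries shared were listed in no other library. That compares with 2 of 111 in E1-KO and 0 in WT, E3-KO and E1&E3-dKO. The 11 lay on 6 chromosomes, with 5 on the X chromosome, spanned 24.8 to 98.8 Mb and had 2 to 7 reads and bias products of 0.392 to 1.60. Only 2 of them had 4 or more reads in both libraries. Those were the X chromosome pair from 12.965 to 100.945 Mb, with 5 and 7 reads, and the chromosome 3 pair from 69.725 to 94.485 Mb, with 4 and 4. Both E2-KO libraries carry the w326 prefix, and its part in their shared pairs was not tested.

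The share of long pairs in common (Jaccard index, shared over all pairs of both libraries) was 1.93% within genotypes (SD 2.11, 5 pairs of libraries) and 1.499% between genotypes (SD 1.30, 40 pairs). The exact permutation test gave one-sided p = 0.142. The E2-KO libraries shared 37 pairs, the most of any, followed by 24.5 (the mean of the counts in both directions) between E1-KO replicate 1 and E2-KO replicate 2. The call depended on the pairs kept: the difference was 3.58 points (exact permutation p = 0.0148) with the 466 best pairs of each library, 0.92 (exact permutation p = 0.00635) at the common p-value and 2.31 (exact permutation p = 0.0360) with 4 or more reads. It was 0.85 (exact permutation p = 0.0318) without E2-KO replicate 2, 0.83 (p = 0.0497) without E1&E3-dKO replicate 1, and -0.39 without E1-KO replicate 2.

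A pair was counted as lost when it was listed in both WT lists and in neither list of the knockout, and as gained in the opposite case. E1-KO lost 1 and gained 1 of 1183 distinct long pairs, where 0.199% of pairs of all distances were lost and 1.15% gained. E2-KO lost 1 and gained 15 of 3016 (0.0332% and 0.497%), against 0.101% and 4.94% at all distances. E3-KO lost 1 and gained 1 of 2165, against 0.0297% and 0.684%, and E1&E3-dKO lost 0 and gained 2 of 5186, against 0.0989% and 0.198%. The 4 comparisons share the WT libraries. Gains of long pairs were below the background of all distances in each knockout, and no test of this was made.

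Among the pairs that both libraries of a genotype held, those with the fewest other libraries were again often on chromosomes 8 and X. The pair from 19.855 to 72.065 Mb on chromosome 8 had 6 and 7 reads in WT and was also held by both E1&E3-dKO libraries. In E1-KO, the X chromosome pair from 3.015 to 32.115 Mb had 4 reads in both libraries and occurred in 1 other. In E3-KO the chromosome 4 pair from 46.485 to 142.985 Mb, and in E1&E3-dKO the chromosome 14 pair from 9.325 to 65.675 Mb and the chromosome 7 pair from 18.305 to 72.775 Mb, each occurred in 1 other library.

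In windows of 1 Mb, the ends of long pairs touched 2528 of 2587 windows. The 10 fullest windows of a library held 1.47% to 17.3% of its ends, with a mean of 6.31% (SD 4.91, n = 10), a share that depends on how many ends a library has, since these windows were chosen for being fullest. The share was highest in E1-KO replicate 1, which had the fewest long pairs, and lowest in E1&E3-dKO replicate 2, which had the most. Only 9 windows held an end in all 10 libraries.

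The 10 windows with the largest mean share were those starting at 32, 4, 3 and 30 Mb of the X chromosome, at 19 and 72 Mb of chromosome 8, and at 50, 23, 78 and 136 Mb of chromosome 6. The window at 32 Mb of the X chromosome held 1.12% of ends on average and that at 4 Mb 1.03%. E1-KO replicate 1 had the highest share in both, and without it the means were 0.747% and 0.773%. Together the 10 windows held 421 ends, 5.46% of a library's ends on average (SD 5.02, range 0.660% to 16.5%), and 77.4% of the 421 belonged to recurrent pairs. The choice of windows by their mean share over the libraries favours a high share and ends that recur. Taken as pairs of windows, 8344 held a long pair, 344 did so in at least 2 libraries, 14 in at least 5 and 2 in all 10. Most end bins were used once, since 0.455% to 4.42% of a library's end bins served more than 1 long pair, and 0% to 2.37% also served a shorter pair.

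Topologically associating domains (TADs), the contiguous stretches within which contacts are enriched, were deposited for each library. The ends of long pairs lay inside a TAD of the same library in 35.3% to 44.0% of cases, and those of shorter pairs in 41.6% to 67.4%. The share of all bins that the TADs cover is not given here. The values thus compare the 2 classes only, and do not show whether either departs from coverage. The difference was -7.21 points (SD 9.81, n = 10 libraries), with long pairs lower in 8 of 10 and exact sign-flip permutation p = 0.0117, adjusted p = 0.0410. WT replicate 2 and E3-KO replicate 2 were the other way. E1-KO replicate 1 stood apart at -32.1 points, and the mean without it was -4.44. With long meaning 30 Mb or more the difference was -4.57 points with exact permutation p = 0.0527. The adjusted p of 0.0410 counts the tests of reads and of few-read, low-product shares, from which no call is made. It is below 0.05 only with both of them counted.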

How the data were processed

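Per the submitters' processing notes, HiC-Pro 2.10.0 and HOMER, with the mm9 build, served for the reads of the 10 libraries. The tool behind the interaction lists is not given in the sources used here. The authors deposited, per library, unscaled read counts, p-values, adjusted p-values of at most 0.01 and bias factors (ratios) per pair of 10 kb bins, and TADs with a score, of which only the positions were used. Library totals are not in these files.

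With Python 3.11.15, NumPy 2.4.6 and SciPy 1.17.1, each pair was kept once and the expected reads were recovered from reads and p-value. Available pairs of bins were counted up to 100 Mb over each chromosome's listed extent. Genotypes were compared by exact permutation over libraries, and distance classes by exact sign flips over 10 libraries; scripts were tested on simulated data. Named regions were the 10 long pairs in most libraries, the 10 windows of largest mean share, 3 pairs per genotype with the fewest other libraries and 3 chromosomes at either end. Replicate numbers were not used to pair samples in the main tests. Their deviations correlated above 0.1 in 6 of 10 pairs of genotypes (range -0.528 to 0.546), which does not settle whether they form a pairing. The members, measures and tests were chosen with earlier results of these data known. No genome of the mm9 build was used, so no genes or sequences are given.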

Additional observations from a re-analysis of the deposited data

Results flagged for a closer look

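The difference in the share of ends inside TADs between long and shorter pairs was -32.1 points in E1-KO replicate 1, far from the next library, WT replicate 1, at -13.4 points, and from the 8 others at -7.52 to 2.27 points. The gap to its neighbour was 0.543 of the whole range of the 10 libraries. This library had the fewest long pairs, 133. The mean over all 10 libraries, -7.21 points, was -4.44 points without it. Dixon's critical value, which this gap exceeds, is set so that about 1 in 20 groups pass it by chance.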

How the results depend on the processing

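Of 379 alternative values of 20 results, 319 kept their direction and side of the threshold or moved little. No cause of a change was tested. Common p-value, minimum of 4 reads, correction of the doubled list and counts of lost and gained pairs were added after the data were seen. Depth is unknown, and pairs of 2 or 3 reads allow no estimate of a single pair's error.

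For the log2 number of long pairs against WT, the 466 best pairs per library gave -1.25 for all knockouts, -3.05 for E2-KO (exact permutation p = 0.0173) and -0.58 for E3-KO. A minimum of 4 reads gave -0.99, -1.54 and -1.04, and the common p-value gave -0.0223 for E2-KO. At an adjusted p of 0.001 the excess of overall over within-genotype spread was -0.0428. For the share of long pairs, the overall difference between libraries exceeded that within genotypes by 12.4 points at the common p-value (exact permutation p = 0.0265) and 7.48 with 4 or more reads (p = 0.0286). On autosomes the overall spread of few-read, low-product shares exceeded that within genotypes by 0.0362 points, against -0.861 over all chromosomes.

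Long minus shorter, the bias product was 0.0112 at an adjusted p of 0.001 and 0.14 with 4 or more reads. Few-read, low-product shares differed by 2.77 points at 30 Mb, 0.65 at a product of 0.35 and 0.863 on autosomes, and ends in TADs by -4.57 at 30 Mb. Sharing within over between genotypes was 3.58 points with the 466 best pairs, 0.92 at the common p-value and 2.31 with 4 or more reads. At an adjusted p of 0.001 and with 4 or more reads, the correlation with chromosome length was 0.640 and 0.499 and the share in the fullest windows 18.3% and 23.9%. Lost and gained pairs of E2-KO, 16 in all, were 9 on autosomes and 4 with 4 or more reads. Those of E3-KO, 2 in all, were 1 at an adjusted p of 0.001, at 30 Mb and with 4 or more reads, and 4 with identical bins. Those of E1&E3-dKO, 2 in all, were 0, 4 and 0 at an adjusted p of 0.001, with identical bins and with 4 or more reads.

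Leaving out 1 library at a time gave, for the number between genotypes, -0.26 to 0.52, against WT -0.12 to 0.92 for all knockouts, -1.96 to -0.93 for E1-KO, -0.59 to 2.14 for E2-KO, -0.0522 to 1.03 for E3-KO and 0.48 to 3.10 for E1&E3-dKO. The ranges were 0.836 to 7.83 for the share of long pairs, -1.33 to 0.327 for few-read, low-product shares between genotypes and -0.0703 to 0.0135 for the bias product. Sharing ranged from -0.385 to 0.847. Lost and gained pairs reached 598 (E1-KO, from 2), 1880 (E2-KO, from 16), 870 (E3-KO, from 2) and 3703 (E1&E3-dKO, from 2), since 1 remaining library then stands for a genotype.

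The data do not settle whether replicate numbers form a pairing. With the replicate block, the exact permutation p was 0.417 for the number between genotypes (0.0793) and 0.920 for all knockouts against WT. The exact permutation p was 0.377 for E1-KO, 0.612 for E2-KO, 0.756 for E3-KO and 0.288 for the double knockout. For the share of long pairs the exact permutation p was 0.333 (3.23), and for few-read, low-product shares 0.900 (-0.516). The block changed no call.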
